A study of Mus musculus with 15 samples.

Results

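Fat cells are endocrine cells, and the proteins they secrete are called adipokines. The 10 genes described here are Adipoq, Retn, Cfd, Agt, Rarres2, Nampt and Lep, which encode the secreted proteins adiponectin, resistin, adipsin, angiotensinogen, chemerin, visfatin (also an enzyme) and leptin, and Adipor1, Adipor2 and Cmklr1, which encode receptors for adiponectin and chemerin. They are 10 of the 26301 gene numbers in the count files, found by Entrez Gene number. They were chosen by function and with results of these same libraries known: Adipoq, Retn, Cfd, Agt and Cmklr1 were listed after their fold changes in the knockdown, wild-type and mutant comparisons had been measured. Their levels and fold changes in those comparisons are therefore a description, and no p-value is given for them.

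The samples were 3T3-L1 cells, a line of mouse preadipocytes that a hormone cocktail (here insulin, dexamethasone and IBMX) drives to become fat cells. All were harvested on day 2 of that treatment, in 5 conditions with 3 libraries each. Control cells carried the empty shRNA vector (sh-Empty), and JMJD1A-KD cells carried an shRNA against Jmjd1a (sh-Jmjd1a), the gene now named Kdm3a, whose product removes methyl groups from lysine 9 of histone H3. In the other 3 conditions, cells carrying sh-Jmjd1a also expressed LacZ as a control protein, shRNA-resistant JMJD1A(WT), or shRNA-resistant JMJD1A(H1122A), labelled as an iron-binding deficient mutant (Mut). The lines were selected with antibiotics after retroviral infection, and the sources do not say whether the 3 libraries of a condition came from separate infections or cultures, so errors and p-values measure only the spread between these libraries. Each library is bulk RNA, in which fewer cells of a type and less RNA per cell cannot be told apart.

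Adiponectin acts through ADIPOR1 and ADIPOR2 to raise fatty acid oxidation and insulin sensitivity, and it is made almost only by adipocytes. Resistin in mice and adipsin (complement factor D, the protease that starts the alternative complement pathway) are likewise products of maturing adipocytes. Angiotensinogen is the precursor of the angiotensin peptides, and chemerin is secreted as an inactive precursor whose cleaved form binds CMKLR1. Nampt makes nicotinamide mononucleotide on the salvage route to NAD in nearly every cell, and leptin is the satiety hormone of mature fat cells.

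The libraries held 11437058 to 25523148 counts with a median of 12916162, and the deepest was JMJD1A(WT) replicate 3. Kdm3a stood at 174 ± 7.36 CPM (counts per 1000000 after normalization, mean ± SD, n = 3) in control cells and at 131 ± 5.74 in JMJD1A-KD cells, 75.3% of control. The Kdm3a transcript fell by 0.42 on the log2 scale (SE 0.048, adjusted p = 2.91e-08, by the quasi-likelihood F test of edgeR, adjusted after Benjamini and Hochberg). It stood at 119 ± 2.66 CPM with LacZ, 1700 ± 69 with JMJD1A(WT) and 2210 ± 90.1 with JMJD1A(H1122A), and the mutant construct was 0.38 higher than the wild type on the log2 scale (SE 0.034, adjusted p = 3.94e-12, edgeR). These counts do not separate the constructs from the cell's own transcript. Of the 10 adipocyte markers listed (Pparg, Cebpa, Fabp4, Plin1, Cd36, Lpl, Cidec, Lipe, Pnpla2 and Slc2a4) all had counts in every condition, with summed levels of 5500 to 5600 CPM in control cells and 2750 to 4460 in the others. Most of these sums was Lpl, at 3890 CPM in control and 2340 in JMJD1A-KD cells. It stood at 2920 with LacZ, 3130 with JMJD1A(WT) and 2430 with JMJD1A(H1122A). The 10 preadipocyte and fibroblast markers listed were Pdgfra, Pdgfrb, Thy1, Dlk1, Ly6a, Cd34, Col1a1, Col3a1, Vim and Fn1. Their summed level was 18100 to 18400 CPM in control cells and 26600 to 33100 in the others. The matrix genes Fn1 and Col3a1 had the highest levels, 8630 and 4730 CPM in control and 11300 and 8660 in JMJD1A-KD cells. Of 9 tested in the knockdown, 6 were higher and 2 lower at an adjusted p under 0.05 (edgeR). The lower ones were Dlk1 (-0.76 on the log2 scale) and Ly6a (-0.41). Macrophage markers summed to at most 6.34 CPM and endothelial markers to at most 1.04. Over the 15 libraries the macrophage genes Adgre1 and Ptprc had 1 count each. The others of that list had more: Cd14 372, Cd68 352, Aif1 86, Csf1r 79, Lyz2 67 and Itgam 19. The endothelial Pecam1 had 39, the most of its list. Of 6 muscle markers only Des (1306 counts) and Myh3 (18) had any count, and Des was 1.85 higher on the log2 scale in JMJD1A(WT) than in LacZ libraries; the part of these genes in the adipokine levels was not tested.

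The start sites of these genes fell into unlike sequence settings, which the values below can be read beside. The 250 bases upstream of the RefSeq start were found for 9 of the 10 genes (Adipor1 has 2 starts, Rarres2 had no entry) and each matched NCBIM37, the assembly called mm9, exactly once. Over 32851 such windows the median held 6 CG pairs and 52.4% G or C. Adipoq and Agt held 0 CG pairs, Retn and Cfd held 2 each and Cmklr1 held 5. Adipor2 and Nampt held 27 each, more than or as many as 92.4% of all windows, the Adipor1 windows held 15 and 33, and Lep held 16. A pair from each end is shown, 5′ to 3′ on the gene's own strand, with CG pairs in capitals: Adipoq at chr16:23146359-23146608 (plus strand), Agt at chr8:127093607-127093856 (minus), Adipor2 at chr6:119338753-119339002 (minus) and Nampt at chr12:33504950-33505199 (plus).
Adipoq: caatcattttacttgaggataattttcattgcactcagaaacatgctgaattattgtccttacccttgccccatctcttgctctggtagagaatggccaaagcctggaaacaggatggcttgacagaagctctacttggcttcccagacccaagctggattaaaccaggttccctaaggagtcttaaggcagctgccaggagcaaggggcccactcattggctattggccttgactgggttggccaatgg
Agt: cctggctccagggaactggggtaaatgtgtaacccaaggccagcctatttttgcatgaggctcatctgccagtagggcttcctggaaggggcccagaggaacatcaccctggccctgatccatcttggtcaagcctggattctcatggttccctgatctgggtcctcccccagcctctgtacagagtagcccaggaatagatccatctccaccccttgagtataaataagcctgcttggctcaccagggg
Adipor2: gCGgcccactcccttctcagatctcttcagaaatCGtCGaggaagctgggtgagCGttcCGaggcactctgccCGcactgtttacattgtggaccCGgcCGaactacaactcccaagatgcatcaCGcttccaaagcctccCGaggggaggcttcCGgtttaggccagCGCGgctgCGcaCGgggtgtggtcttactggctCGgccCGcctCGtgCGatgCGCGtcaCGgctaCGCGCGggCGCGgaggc
Nampt: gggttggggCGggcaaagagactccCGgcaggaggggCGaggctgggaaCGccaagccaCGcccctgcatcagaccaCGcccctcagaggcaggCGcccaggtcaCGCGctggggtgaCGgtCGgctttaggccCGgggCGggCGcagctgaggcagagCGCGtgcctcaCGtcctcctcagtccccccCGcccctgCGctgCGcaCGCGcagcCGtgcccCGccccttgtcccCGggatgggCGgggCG
The TATA box word TATAAA, searched on both strands, occurred in the Agt window alone, at 30 to 25 bases before the start. That word occurred in 12.4% of all windows. Other spellings, such as TATAAG in the Lep window, were not searched. The PPAR half-site AGGTCA occurred in the Nampt window alone, 151 to 146 bases before the start (14% of all windows), the C/EBP word TTGCNNAA in the Lep window alone, as TTGCGCAA at 55 to 48 (9.56%), and the E-box CACGTG in the Cmklr1 window alone, at 145 to 140 (6.02%). No member window held the direct repeat of 2 AGGNCA words with 1 base between them (0.338% of all windows), the cyclic AMP response element TGACGTCA (1.55%) or the glucocorticoid receptor half-site TGTTCT (16.1%). A match is a description of letters, and a missing one says only that these letters are not in the window.

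JMJD1A knockdown went with lower levels of 7 of the 9 members with enough counts to test: Adipoq, Retn, Cfd, Agt, Rarres2, Cmklr1 and Adipor2. The same 7 were higher in the JMJD1A(WT) line than in the LacZ line, and lower in the mutant line than in the JMJD1A(WT) line. Adipor1 and Nampt were higher in JMJD1A-KD than in control cells and passed no threshold among the 3 rescue lines. Lep was at or near 0 throughout. Over all genes, the knockdown comparison called 23.9% lower and 22.3% higher at an adjusted p of 0.05 (edgeR, 12272 genes tested), so that a call of 9 of 9 members there sits in a comparison that called a large share of all genes. The comparison of JMJD1A(WT) with LacZ called 4.98% of 12557 genes higher and 4.52% lower, against 7 and 0 of the 9 members. For JMJD1A(H1122A) against JMJD1A(WT), 11.7% of genes were called lower and 12.1% higher, against 7 and 0 members. For JMJD1A(H1122A) against LacZ, 4.46% were called lower and 4.78% higher, against 6 and 0 members. Since the members were listed from these contrasts, nothing is read from their counts, nor from the further calls and medians given next. By unadjusted p as well, at 0.05, 0 members were higher in either mutant comparison and 0 lower with JMJD1A(WT) than LacZ, and DESeq2 also called 0. The members' median log2 difference was -1.14 in the knockdown, 1.17 for JMJD1A(WT) over LacZ, -1.75 for JMJD1A(H1122A) over JMJD1A(WT) and -0.74 for JMJD1A(H1122A) over LacZ, where the median of all genes lay between -0.003 and 0.001. The 3 rescue comparisons share libraries, so they are not independent of each other.

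**Figure D1:**
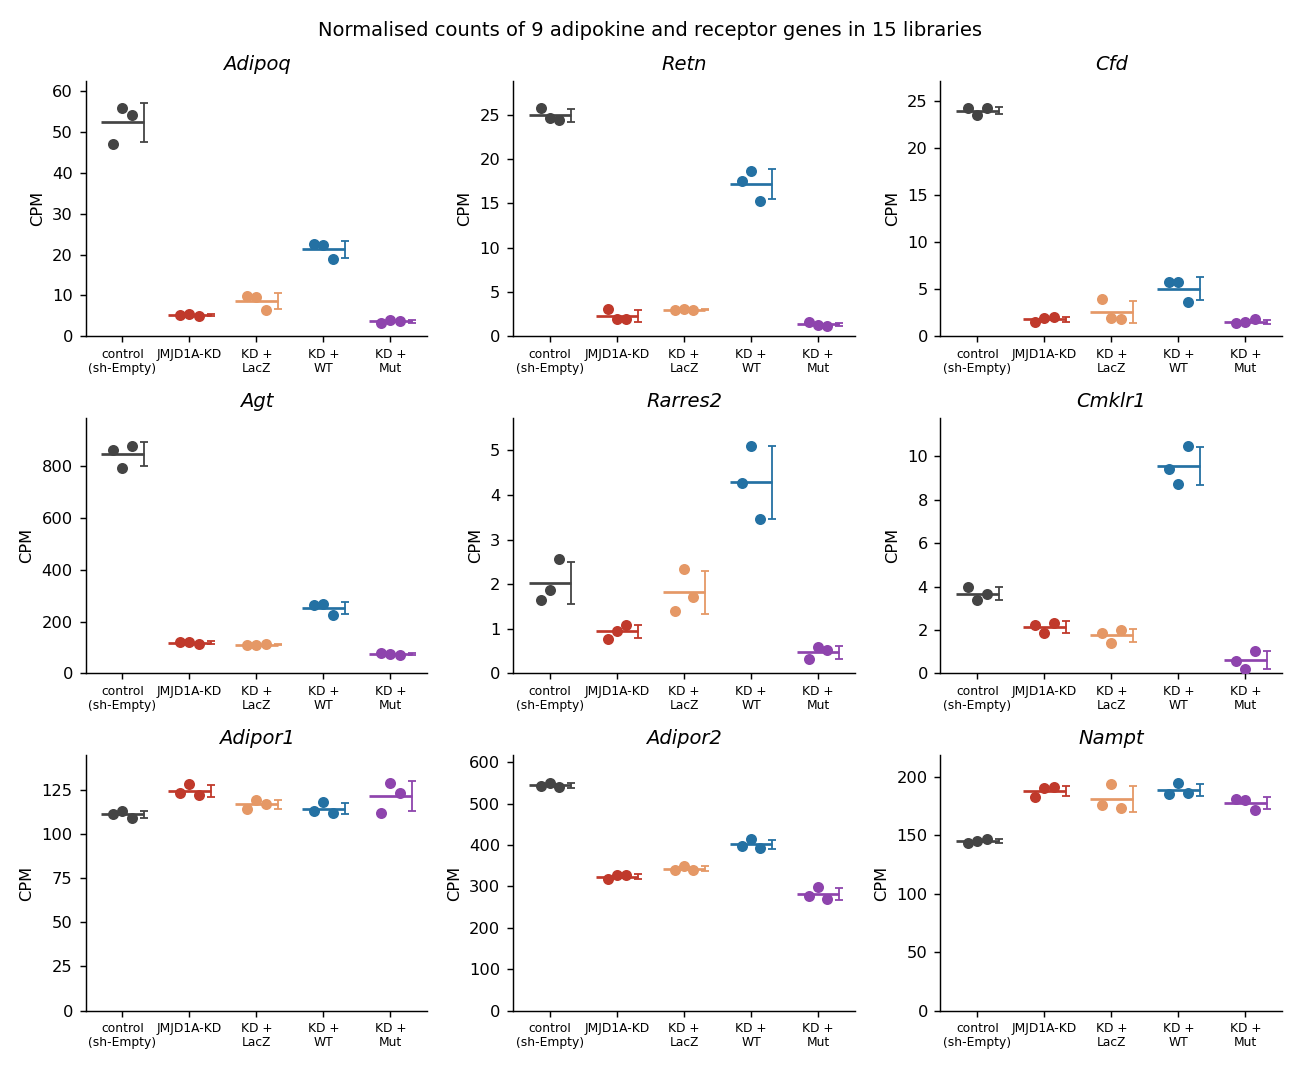
Normalised counts (CPM, linear axes from 0) of 9 member genes in each of the 15 libraries, by condition; points are libraries, lines the mean and bars the SD of 3. Adipoq, Retn, Cfd and Agt are highest in control cells, Rarres2 and Cmklr1 are highest with JMJD1A(WT), and the Adipor1 libraries lie between 109 and 129 CPM in all conditions.

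Adiponectin (Adipoq, Entrez 11450, chr16:23146609-23158101, plus strand, mm9) read 47, 55.8 and 54.3 CPM in the 3 control libraries and 5.29, 5.38 and 4.87 in JMJD1A-KD. With LacZ it read 9.83, 9.73 and 6.47 CPM, with JMJD1A(WT) 22.6, 22.3 and 18.9, and with JMJD1A(H1122A) 3.15, 4.11 and 3.63. No library of a condition reached into the range of another, and the order ran from control through JMJD1A(WT), LacZ and JMJD1A-KD down to JMJD1A(H1122A). The gene was 10.2-fold lower in JMJD1A-KD than in control cells (log2 difference -3.35, SE 0.11, 95% interval -3.58 to -3.12) and 2.4-fold higher with JMJD1A(WT) than LacZ (1.26, SE 0.13, 1.01 to 1.52). JMJD1A(WT) libraries stood at 40.6% of the control level. Cells with JMJD1A(H1122A) were 5.74-fold below those with JMJD1A(WT) and 2.39-fold below those with LacZ (log2 difference -1.26, SE 0.2, -1.66 to -0.86). Control and rescue lines differ by a second infection and by the set of libraries as well as by the construct. Shares of the control level in rescue lines, here and for the members below, therefore cannot be told apart from the set.

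Resistin (Retn, Entrez 57264, chr8:3655770-3660110, plus strand) read 25.7, 24.6 and 24.4 CPM in control and 3.12, 1.93 and 1.93 in JMJD1A-KD libraries, a 10.8-fold lower level (log2 difference -3.44, SE 0.16, -3.76 to -3.11). It came nearest to the control level of the secreted factors that were highest there: 17.5, 18.6 and 15.3 CPM with JMJD1A(WT), 68.7% of control, against 2.94, 3.12 and 2.98 with LacZ. The difference between these lines was 5.55-fold (2.47, SE 0.16, 2.15 to 2.79). With JMJD1A(H1122A) the libraries held only 14 to 20 counts, or 1.58, 1.25 and 1.21 CPM, below every other library. The mutant line was 12.4-fold below JMJD1A(WT) (-3.64, SE 0.2, -4.04 to -3.24) and 2.24-fold below LacZ (-1.16, SE 0.3, -1.78 to -0.55). JMJD1A-KD and LacZ libraries overlapped, as the highest JMJD1A-KD library matched the highest LacZ library at 3.12 CPM.

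Adipsin (Cfd, Entrez 11537, chr10:79353598-79355401, plus strand) had the largest knockdown difference of the members, 13.3-fold lower (log2 difference -3.73, SE 0.16, -4.06 to -3.4), from 24.2, 23.5 and 24.2 CPM in control to 1.47, 1.93 and 2.01 in JMJD1A-KD libraries. This interval overlaps those of Adipoq and Retn. Its level with JMJD1A(WT), 5.75, 5.74 and 3.66 CPM, was 21% of control, the smallest share of the members. LacZ libraries read 3.95, 1.92 and 1.85 CPM from 59, 27 and 26 counts, and the first of these lay above the lowest JMJD1A(WT) library. The difference of 0.87 (SE 0.25, 0.37 to 1.36) between JMJD1A(WT) and LacZ rests on groups that overlap, and it fell below the threshold when any of LacZ replicate 2, LacZ replicate 3, JMJD1A(WT) replicate 1 or JMJD1A(WT) replicate 2 was left out (0.69, 0.68, 0.75 and 0.76). JMJD1A(H1122A) libraries read 1.42, 1.47 and 1.81 CPM, below all JMJD1A(WT) libraries (-1.61, SE 0.29, -2.19 to -1.02). Against LacZ the mutant's difference of -0.74 (SE 0.35, -1.44 to -0.04) did not pass the threshold, although its libraries lay below those with LacZ.

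Angiotensinogen (Agt, Entrez 11606, chr8:127080434-127093606, minus strand) was the most abundant member per length of exon, at 446 ± 24.2 CPM per kilobase in control cells. Its levels were 862, 792 and 878 CPM in control and 122, 121 and 113 in JMJD1A-KD libraries. The knockdown difference was 7.17-fold (log2 difference -2.84, SE 0.047, -2.94 to -2.75). LacZ libraries read 110, 109 and 114 CPM and overlapped JMJD1A-KD. JMJD1A(WT) libraries read 265, 266 and 227 CPM, 2.27-fold over LacZ (1.18, SE 0.051, 1.08 to 1.28) and 30% of control. JMJD1A(H1122A) libraries, at 79.4, 73.3 and 71.6 CPM, lay below all others, 3.37-fold under JMJD1A(WT) (-1.75, SE 0.055, -1.86 to -1.64) and 1.49-fold under LacZ (-0.57, SE 0.059, -0.69 to -0.45). Per length, Agt exceeded Adipoq 11.9 ± 1.51-fold in control, 16.7 ± 0.222-fold in JMJD1A-KD and 8.67 ± 0.0945-fold in JMJD1A(WT) cells, so the pair did not keep one ratio.

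**Figure D2:**
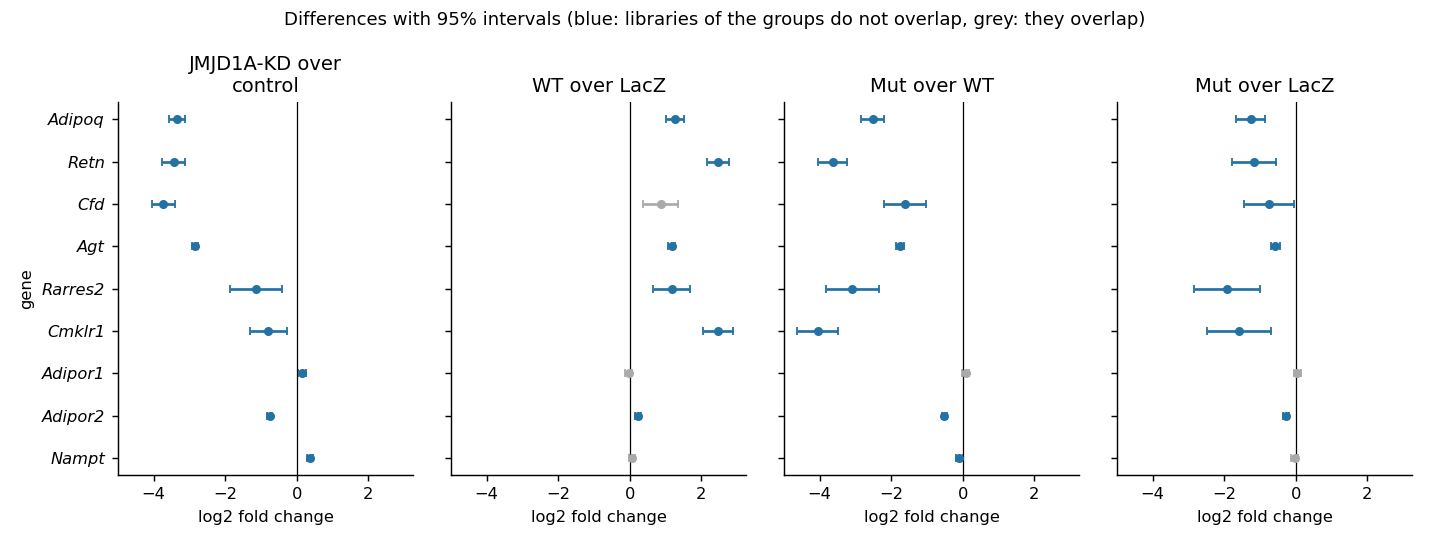
Log2 fold changes of the 9 tested members with 95% intervals in 4 comparisons; blue points are genes whose libraries do not overlap between the groups, grey points genes whose libraries do. Retn and Cmklr1 lie farthest right in the comparison of JMJD1A(WT) with LacZ, at 2.47 and 2.46, and Adipor1 lies within 0.15 of 0 in all 4.

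The chemerin pair stood above the control level in the JMJD1A(WT) line, a comparison between sets with the limit given for Adipoq. Chemerin (Rarres2, Entrez 71660, chr6:48519697-48522669, minus strand) was a low transcript, at 1.65, 1.87 and 2.56 CPM in control, 0.78, 0.963 and 1.08 in JMJD1A-KD and 1.4, 2.34 and 1.71 in LacZ libraries. JMJD1A(WT) libraries read 4.28, 5.11 and 3.47 CPM, all above control and 211% of it, and JMJD1A(H1122A) libraries 0.315, 0.587 and 0.519 CPM from 4, 8 and 6 counts. Control and LacZ libraries overlapped and the other neighbours in that order did not. The LacZ line stood at 89.7% of control and JMJD1A-KD at 46.4%, so the 211% cannot be told apart from the set. The log2 difference was -1.14 (SE 0.36, -1.87 to -0.4) in the knockdown, where the call was lost without control replicate 3 (-0.9), and 1.17 (SE 0.25, 0.66 to 1.69) for JMJD1A(WT) over LacZ. It was -3.09 (SE 0.37, -3.83 to -2.35) for JMJD1A(H1122A) over JMJD1A(WT) and -1.92 (SE 0.46, -2.85 to -0.99) over LacZ. Exons of Rarres2 share 323 bases with Lrrc61 on the opposite strand, and the strand setting of the counting was not given in the sources used here. Lrrc61 had 45 to 128 counts per library and was called in none of the 4 comparisons (log2 differences 0.14, 0.05, -0.02 and 0.03, edgeR adjusted p from 0.581 to 0.96).

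The chemerin receptor (Cmklr1, Entrez 14747, chr5:114062363-114100435, minus strand) showed the widest span among the rescue lines. It read 4, 3.4 and 3.64 CPM in control and 2.25, 1.85 and 2.32 in JMJD1A-KD libraries, only 1.73-fold apart (log2 difference -0.79, SE 0.25, -1.3 to -0.28). LacZ libraries, at 1.87, 1.42 and 1.99 CPM, overlapped JMJD1A-KD. JMJD1A(WT) libraries reached 9.44, 8.73 and 10.5 CPM, 260% of control and 5.51-fold over LacZ (2.46, SE 0.21, 2.04 to 2.89). JMJD1A(H1122A) libraries read 0.551, 0.22 and 1.04 CPM from 7, 3 and 12 counts. That is 16.6-fold below JMJD1A(WT) (-4.05, SE 0.28, -4.63 to -3.48), and -1.59 (SE 0.44, -2.49 to -0.7) against LacZ, a call lost without LacZ replicate 3 (-1.5), JMJD1A(H1122A) replicate 1 (-1.56) or JMJD1A(H1122A) replicate 2 (-1.17). Per length, receptor over ligand stood at 0.392 ± 0.104 in control and 0.48 ± 0.138 in JMJD1A(WT) cells, whose libraries overlap.

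The adiponectin receptors parted from each other. Adipor1 (Entrez 72674, chr1:136311955-136329928, plus strand), the form linked to AMP-activated kinase, read 111, 113 and 109 CPM in control, 123, 128 and 122 in JMJD1A-KD, 114, 119 and 117 in LacZ, 113, 118 and 112 in JMJD1A(WT) and 112, 129 and 123 in JMJD1A(H1122A) libraries. All neighbours in the order of its 5 condition means overlapped. The knockdown difference was 0.15 (SE 0.049, 0.05 to 0.25), a call lost without control replicate 3 (0.14) or JMJD1A-KD replicate 2 (0.13). In the rescue set the log2 differences were -0.03 (-0.13 to 0.07), 0.08 (-0.02 to 0.18) and 0.05 (-0.05 to 0.15), and these 3 intervals together span -0.13 to 0.18.

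Adipor2 (Entrez 68465, chr6:119303168-119367501, minus strand), linked to PPARα, followed the secreted factors at a smaller scale. It read 542, 551 and 540 CPM in control, 317, 328 and 327 in JMJD1A-KD, 339, 350 and 340 in LacZ, 398, 414 and 393 in JMJD1A(WT) and 278, 299 and 270 in JMJD1A(H1122A) libraries. No neighbouring conditions overlapped in the order control, JMJD1A(WT), LacZ, JMJD1A-KD, JMJD1A(H1122A), which is also the order of Adipoq. The differences were -0.76 (SE 0.038, -0.84 to -0.68) in the knockdown, 0.23 (SE 0.039, 0.15 to 0.31) for JMJD1A(WT) over LacZ, -0.51 (SE 0.04, -0.59 to -0.43) for JMJD1A(H1122A) over JMJD1A(WT) and -0.28 (SE 0.04, -0.36 to -0.2) over LacZ. Per length of exon, Adipor2 exceeded Adipor1 5.91 ± 0.0643-fold in control cells and 3.14 ± 0.0886-fold in JMJD1A-KD cells. The ratio was 3.54 ± 0.0457 with LacZ, 4.23 ± 0.00393 with JMJD1A(WT) and 2.82 ± 0.174 with JMJD1A(H1122A). Adipor2 was thus the more abundant receptor transcript in every library, by a margin that was widest in control cells; per kilobase of the longest transcript the control levels were 137 for Adipor2 and 32.2 for Adipor1. The RefSeq start used for the Adipor2 sequence above lies inside the gene as GENCODE draws it, and the counts do not tell its start sites apart.

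**Figure D3:**
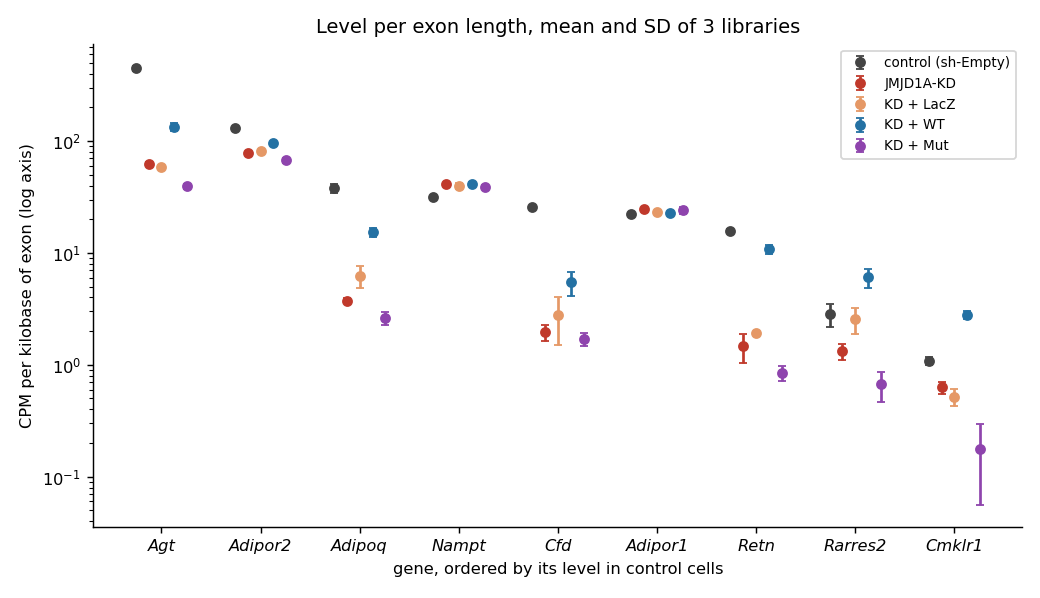
Level of 9 members in CPM per kilobase of exon (log axis), mean and SD of 3 libraries in each condition, with genes ordered by their control level. Agt leads at 446 in control cells and Cmklr1 is last at 1.08, and the JMJD1A(WT) points of Rarres2 and Cmklr1 lie above their control points.

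Nampt (Entrez 59027, chr12:33505200-33538234, plus strand) differed from the other secreted members that were tested. Its libraries read 143, 145 and 147 CPM in control, 183, 190 and 191 in JMJD1A-KD, 176, 194 and 173 in LacZ, 185, 195 and 186 in JMJD1A(WT) and 181, 180 and 172 in JMJD1A(H1122A). Control libraries were the lowest 3 of the 15, and the other conditions overlapped their neighbours. The log2 difference was 0.37 (SE 0.044, 0.28 to 0.46) in the knockdown and 0.06 (SE 0.045, -0.03 to 0.15) for JMJD1A(WT) over LacZ, and no return toward the control level was measured in that line. For JMJD1A(H1122A) over JMJD1A(WT) it was -0.09 (-0.18 to 0) and did not pass, although the libraries did not overlap, and over LacZ it was -0.03 (-0.12 to 0.06).

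Leptin (Lep, Entrez 16846, chr6:29010220-29023877, plus strand) gave 2 counts in the 15 libraries, 1 in JMJD1A(H1122A) replicate 1 and 1 in JMJD1A(WT) replicate 2. In the 13 libraries with 0 counts, a count of 0 allows up to 3 counts, or 0.117 to 0.261 CPM. Lep was too low to be tested, and no difference was detectable at this depth on day 2.

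In control cells the order per length of exon was Agt, Adipor2 (131 CPM per kilobase), Adipoq (37.9), Nampt (31.8), Cfd (26), Adipor1 (22.1), Retn (15.8), Rarres2 (2.86) and Cmklr1 (1.08). In JMJD1A-KD cells Adipor2 led with 77.7 and Agt followed with 62.7, while Nampt (41.4) and Adipor1 (24.8) lay above Adipoq (3.75), Cfd (1.95) and Retn (1.47). Adipoq thus lay above the broadly expressed Nampt and Adipor1 in control cells and below both in JMJD1A-KD cells. The middle of the control order depends on the length used: per kilobase of the longest transcript, Adipor1 (32.2) lay beside Nampt (31.8) and above Cfd (26) and Retn (22.2). Members with many counts varied little within a condition: the CV of Adipor2 ran from 1.05% to 5.26%. Retn, Cfd, Rarres2 and Cmklr1 had 3 to 59 counts per library in the JMJD1A-KD, LacZ and JMJD1A(H1122A) lines, where counting error alone gives a CV of 15.2% to 40.8%.

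Related pathway genes, like the marker genes, were listed by role but with earlier results of these data known. Their counts stand beside the shares of all genes given above and are a description. In adiponectin signalling (17 of 18 tested) the knockdown called 2 lower, Cdh13 and Paqr4, and 4 higher, Camkk2, Paqr3, Ero1a and Asah2. Cdh13, the T-cadherin that binds adiponectin on the cell surface, stood at 109 ± 1.26 CPM in control and 71.1 ± 2.82 in JMJD1A-KD cells and fell by 0.63 on the log2 scale (adjusted p = 1.21e-10). It did not return with JMJD1A(WT), where it was lower than with LacZ (50.9 ± 4.38 against 63.2 ± 3.53 CPM, -0.33, adjusted p = 0.000276), the opposite direction to Adipoq. The adaptor Appl1 and the chaperone Erp44 were called in none of the 4 comparisons (adjusted p from 0.239 to 0.947). With JMJD1A(WT) against LacZ, Cdh13, Ppargc1a and Ero1a were called lower and Paqr4 higher. Between the mutant and JMJD1A(WT), Paqr4 was lower and Cdh13 and Rack1 were higher. These adjusted p-values and those of the next paragraphs come from the same edgeR test, adjusted over all genes tested. They take no account of how the lists were chosen, so nothing is read from them about a list.

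For leptin, the receptor gene Lepr averaged 0.161 to 0.488 CPM in the 5 conditions and was not tested. Of 11 tested signalling genes, 6 were called lower and 4 higher in the knockdown, all by at most 0.62 on the log2 scale, among them Stat3 (-0.17, adjusted p = 0.00138) and the feedback inhibitor Socs3 (0.43, adjusted p = 7.86e-05). JMJD1A(WT) against LacZ called 0 of them in either direction by edgeR, where 3 had an unadjusted p under 0.05 and DESeq2 called 0. Between the mutant and JMJD1A(WT), Ptpn11 and Irs2 were lower and Leprot, Jak2, Stat5a and Stat5b higher. On the chemerin side only 5 of 15 genes were tested, and the other receptors Gpr1 and Ccrl2 were not. The knockdown called Plat, Ctsk, Ctsl and Serpina3n higher and 0 lower (0 also at an unadjusted p under 0.05 and by DESeq2), so that the proteases among them (Plat, Ctsk and Ctsl) stood opposite in sign to Rarres2. Serpina3n, a protease inhibitor, was higher in JMJD1A(WT) than LacZ cells (0.75), with Ctsk (-0.25) and Ctsl (-0.14) lower, and lower in mutant than JMJD1A(WT) cells (-1.58), with Plat and Ctsk higher.

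Of 5 tested genes around resistin, the knockdown called 3 higher and 1 lower. The candidate receptor gene Tlr4 stood at 12.3 ± 1.34 CPM in control and 25.6 ± 1.24 in JMJD1A-KD cells (1.07, adjusted p = 2.51e-09) and at 28.4 ± 1.94 with JMJD1A(WT) against 26.7 ± 1.3 with LacZ (0.11, adjusted p = 0.561). Retnla and Ror1 were also higher and Dcn, which encodes decorin, was lower in the knockdown. JMJD1A(WT) over LacZ called Ror1 and Dcn lower and 0 higher by edgeR, with 1 at an unadjusted p under 0.05 and 1 by DESeq2. In the complement list, C3, the substrate of the convertase that adipsin completes, went with Cfd: 2140 ± 42.3 CPM in control, 699 ± 14.6 in JMJD1A-KD (-1.63, adjusted p = 8.12e-24), 762 ± 10.6 with LacZ, 1170 ± 49.8 with JMJD1A(WT) (0.62 over LacZ, adjusted p = 1.88e-18) and 670 ± 18.4 with JMJD1A(H1122A). C4b was likewise called lower in the knockdown, higher with JMJD1A(WT) than LacZ and lower with the mutant than JMJD1A(WT). Cfb, whose product adipsin cleaves, was called in none of the comparisons (adjusted p from 0.267 to 0.68). Of 20 complement genes 10 were tested.

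In the renin-angiotensin list (9 of 16 tested) the genes for angiotensin-converting enzyme and the type 1a receptor (Ace, Agtr1a) had too few counts to test. The type 2 receptor gene Agtr2 ran opposite to Agt in the knockdown, from 34.4 ± 1.63 CPM to 81.8 ± 5.86 (1.24, adjusted p = 1.04e-14), and was lower with JMJD1A(WT) than LacZ (-0.5, adjusted p = 3.63e-07). It was also lower with the mutant than with LacZ (-0.78, adjusted p = 1.83e-10), which Agt was too. Against JMJD1A(WT) the mutant line was again lower in both Agtr2 (-0.27, adjusted p = 0.00764) and Agt. LacZ libraries held 48.7 ± 1.35 CPM of Agtr2, below the JMJD1A-KD level. Ren1, Ctsd and Agtrap were called lower in the knockdown, and Ren1, Mme, Ctsd and Prcp higher with JMJD1A(WT). Between the mutant and JMJD1A(WT), Ren1 (-3.2), Mme, Prcp and Agtr2 were lower and Agtrap and Anpep higher. The prorenin receptor gene Atp6ap2 was called in none of the comparisons. Around Nampt (15 of 19 genes tested in the knockdown), the methyltransferase gene Nnmt, whose product uses up nicotinamide, was lower in the knockdown (-0.51, adjusted p = 1.46e-07) with Parp1 and Cd38, and Nmnat2 was higher. Cd38 and Bst1, which encode NAD glycohydrolases, were higher with JMJD1A(WT) than LacZ (1.1 and 2.06) and lower with the mutant than JMJD1A(WT) (-2.65 and -3.89), a span that Nampt itself did not show.

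Among 44 other secreted products of fat tissue, 28 were tested in the knockdown, with 9 called lower and 14 higher. Lipocalin 2 (Lcn2) stood at 199 ± 7.86 CPM in control and 168 ± 7.94 in JMJD1A-KD cells (-0.25, adjusted p = 5.77e-05) and was higher in JMJD1A(WT) than LacZ cells (0.47, adjusted p = 7.9e-10). Angptl4, an inhibitor of lipoprotein lipase, was lower in the knockdown (-0.32, adjusted p = 8.73e-07) and higher with JMJD1A(WT) (0.16, adjusted p = 0.0025). The retinol carrier gene Rbp4 was not tested. With JMJD1A(WT) over LacZ 9 of 29 tested were higher, and 3, Fbn1, C1qtnf6 and Cxcl12, were lower. With the mutant against JMJD1A(WT) 10 were lower and 8 higher.

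**Figure D4:**
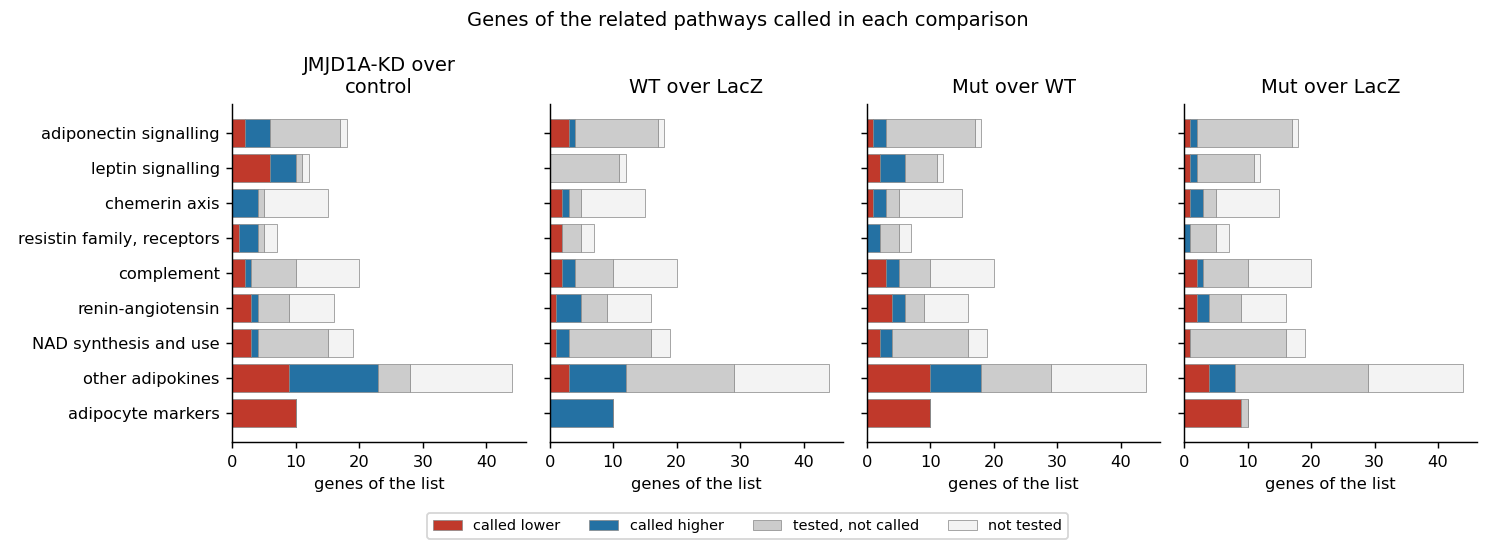
Genes of 8 related lists and of the adipocyte marker list called lower (red), called higher (blue), tested and not called (grey) or not tested (pale) in each comparison, by count of genes. The adipocyte markers were called on one side, 10 lower in the knockdown, 10 higher with JMJD1A(WT) over LacZ and 10 lower with JMJD1A(H1122A) over JMJD1A(WT), while most pathway lists hold calls in both directions.

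The adipocyte markers stood on the same side as the 7 members in each comparison, with a median log2 difference of -1.61 in the knockdown, 0.54 for JMJD1A(WT) over LacZ and -1.6 for JMJD1A(H1122A) over JMJD1A(WT), and 9 of 10 were called lower with the mutant than with LacZ (median -0.96). They include Pparg, the master regulator of fat cell formation (-0.89, 0.36, -0.84 and -0.48), its partner Cebpa (-1.35, 0.81, -1.86 and -1.05) and the fatty acid carrier Fabp4 (-1.87, 1.25, -2.37 and -1.12). Their part in the members' levels was not tested. By the likeness of the 5 condition means (root mean square difference of centred log2 values over 10101 genes, given as a description), the genes most like Adipoq were Cidec (0.239), Gpd1 (0.298) and Arxes2 (0.3). Those most like Adipor2 were Coq5 (0.0342), Cluh (0.0353) and Jagn1 (0.0381), and those most like Nampt were Tet2 (0.0114), Mdm4 (0.0153) and Tut4 (0.016). Small differences for Adipor2 and Nampt are measured against profiles of narrower span than that of Adipoq. Mean levels of Adipoq ran from 52.4 CPM in control to 3.63 with JMJD1A(H1122A), and those of Adipor2 from 544 to 283. Nampt ran only from 145 CPM in control to 189 with JMJD1A(WT).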

How the data were processed

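From polyA RNA reads, the authors made the counts with fastp (trimming), HISAT2 (alignment to mm9) and featureCounts, and deposited raw counts by Entrez Gene number with no normalization. The kit is NEBNext Ultra in the labels but a directional kit of that series in the study's methods, and the strand setting of the counting was not given in the sources used here, so genes that overlap on opposite strands may share reads. The depth was 11437058 to 25523148 counts, which leaves Rarres2, Cmklr1, Cfd and Retn imprecise where they have few counts. Rows with no symbol (2110, 0.5% of counts) stayed in the totals.

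Separate fits for the 6 knockdown libraries and the 9 rescue libraries were made with edgeR 4.0.16 in R 4.3.3 (TMM, filterByExpr with a minimum count of 10, robust quasi-likelihood F test, Benjamini-Hochberg adjusted p under 0.05). Levels are CPM on a TMM scale over all 15 libraries, and lengths are the union of GENCODE M1 exons. Symbols and promoter windows came from RefSeq (GRCm38.p6), and windows were placed on NCBIM37 by exact match. CG pairs were chosen for display after the windows were seen. The method was tested on simulated data with 200 genes changed 2-fold, of which 87.5% were recovered for the knockdown comparison, with 4.37% of calls false. These genes were changed up and down in equal number. The real knockdown called 5672 of 12272 genes, so these shares do not carry over to changes of that extent. The members, lists and tests were chosen with earlier results of these data known. Named genes are Kdm3a, the members, genes set by role in each list, the genes counted where a count is 5 or fewer, and the 3 most like Adipoq, Adipor2 and Nampt. Alternatives were RLE size factors, no filter, DESeq2 1.42.0, the legacy quasi-likelihood method, all 15 libraries in one fit, a replicate block, longest transcript lengths and each library left out. A few listed genes are counted in the lists but not reported by name.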

Additional observations from a re-analysis of the deposited data

How the results depend on the processing

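The number of members called (9, 7, 7 and 6) stayed within 1.5 times in all 57 counts made under the alternatives. Genes called in the comparison of the mutant with LacZ, 1160, ranged from 674 (without JMJD1A(H1122A) replicate 1) to 1256 as single libraries were left out, with 764 without LacZ replicate 3. Calls of Cfd, Rarres2, Cmklr1 and Adipor1 that were lost when 1 library was left out stand beside their values above. Adipor1 in the mutant over LacZ took the opposite sign without JMJD1A(H1122A) replicate 2 (-0.00146, range -0.00146 to 0.11 over the left-out libraries) and Nampt without LacZ replicate 2 (0.02, range -0.06 to 0.02), both near 0 and not called. DESeq2 gave no adjusted p to Rarres2 in the mutant against LacZ and called 5 members there. With the longest transcript in place of all exons, 19 of 50 levels per kilobase moved by more than their SD, and Adipor1 moved from below Cfd to the level of Nampt in control cells. Deviations of libraries with the same number had correlations from -0.0835 to 0.0977, and those with different numbers from -0.165 to 0.145. Within the rescue set the same-number values ran from -0.0258 to 0.0977 and most were positive. Whether the numbers pair the libraries is not settled by these values. A block on the number changed the genes called from 1193 to 1393, 2985 to 3283 and 1160 to 1413 in the rescue comparisons. In the knockdown it changed them from 5672 to 5425. With the number as a block the members called were 9, 7, 7 and 6, and no call on a member changed; the block called 1 leptin signalling gene for JMJD1A(WT) over LacZ and 3 genes around resistin for the mutant over LacZ, in place of 0 and 1. Depth limits Lep in all libraries and Rarres2, Cmklr1, Cfd and Retn in the JMJD1A-KD, LacZ and mutant lines.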
